A study of Mus musculus with 6 samples.

Results

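The Ifi200 family was followed in injured tendon through 10 of its genes, *Aim2*, *Ifi203*, *Ifi204*, *Ifi205*, *Ifi207*, *Ifi208*, *Ifi209*, *Ifi211*, *Ifi213* and *Mndal*, out of 18099 genes in the deposited table. They were chosen by name as family members on chromosome 1, and with a known result in view, the lower count of *Ifi208* in mice whose interferon-induced genes mostly had higher mean levels. For that reason the values of these genes in the comparison of the genotypes are a description, and no test of theirs is used as support. All 10 were matched through their NCBI Gene identifiers, and all 10 passed the filter on low counts.

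RNA was sequenced from the Achilles tendon of 6 neonatal mice, collected 7 days after the tendon was cut. Of these, 3 were LysM-Cre; Ampkα1 fl/fl and the other 3 were Ampkα1 fl/fl controls from the same litters, without Cre. The loxP-flanked gene, whose symbol is *Prkaa1* and which encodes the kinase subunit AMPKα1, is carried by both groups. Cre recombinase is made from the lysozyme M locus (*Lyz2*), which is active in macrophages, monocytes and neutrophils, so that the deletion is meant for myeloid cells, and the RNA held all cells of the tissue. As the controls lacked Cre, effects of Cre itself, of a change at *Lyz2* and of the deletion cannot be told apart here. Which litter each mouse came from and its sex are not given in the labels. The libraries held between 18076805 and 19479880 reads. Fold changes are LysM-Cre over control, and genes outside the family were compared in edgeR's quasi-likelihood test with p-values adjusted over all 14261 genes tested. *Prkaa1* was counted at 740, 688 and 690 in the control mice and at 626, 751 and 652 in the LysM-Cre mice (log2 fold change -0.08 ± 0.09, where ± with SE marks the standard error, adjusted p = 0.744 in edgeR), and *Lyz2* had 7378, 7778 and 7372 reads against 9, 15 and 8 (log2 fold change -9.46 ± 0.17 SE, adjusted p = 3.41e-06 in edgeR). Tendon and fibroblast markers were abundant in every library (56600 to 65300 counts per 1000000 reads, or CPM, scaled between libraries by TMM and summed over 9 genes), and skeletal muscle markers ranged from 180 to 9190 CPM over 8 genes.

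The Ifi200 proteins, also called PYHIN or p200 proteins, join a pyrin domain, which binds other pyrin domains, to HIN domains, which bind DNA, although some members have only the pyrin domain. AIM2 senses double-stranded DNA in the cytosol and assembles an inflammasome with the adaptor ASC and caspase-1, and IFI204 has been linked to DNA sensing ahead of the adaptor STING. Interferon induces many of the genes through factors that bind the interferon-stimulated response element (ISRE) in their promoters. In mouse genomes the genes form a tandem cluster that differs in content between strains, and several copies are very alike in sequence.

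The members lay on chromosome 1 between 173349547 and 174031755 of GRCm38.p6, a span of 682209 bases that holds 19 annotated genes, 5 of them pseudogenes. Their order was *Aim2*, *Ifi213*, *Ifi209*, *Ifi208*, *Ifi207*, *Ifi204*, *Mndal*, *Ifi211*, *Ifi203* and *Ifi205*. *Ifi208* spans chr1:173673628-173698393 and *Ifi213* chr1:173566280-173599348. These nearby genes are shown first because they had nearly the same promoter, while the level of *Ifi208* was lower in the LysM-Cre mice and that of *Ifi213* was not. The promoter windows were those of RefSeq for GRCm38.p6, from 250 bases before to 50 after an annotated start. Aligned on the ISRE without gaps, the 2 windows matched at 282 of 285 bases (98.9%). The stretch up to and including the ISRE is printed 5′ to 3′ on the strand of each gene, with the ISRE in capitals at the end and the 2 bases that differ between the genes also in capitals.
Ifi208 (chr1:173673430-173673616, plus strand): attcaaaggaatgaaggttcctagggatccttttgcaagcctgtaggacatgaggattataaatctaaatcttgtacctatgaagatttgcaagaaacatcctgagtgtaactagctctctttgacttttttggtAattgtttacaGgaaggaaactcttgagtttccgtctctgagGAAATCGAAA 
Ifi213 (chr1:173599336-173599522, minus strand): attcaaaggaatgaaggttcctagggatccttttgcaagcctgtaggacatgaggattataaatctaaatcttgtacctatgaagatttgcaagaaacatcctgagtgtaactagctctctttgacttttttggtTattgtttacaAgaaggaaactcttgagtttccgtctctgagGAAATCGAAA

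The ISRE was searched on both strands as GAAA, any 2 bases and GAAA again. It was found in 8 of the 11 member windows (72.7%), for 7 of the 9 members that have a window, against 3.44% of all 32851 windows of the same length. The member windows are not independent, because the genes are related copies in a cluster, and those of *Mndal* and of *Ifi203* overlap. The stretches around the match on the strand of the gene are shown to compare the element between the members, with the match in capitals.
Ifi208 (chr1:173673597-173673626, plus strand): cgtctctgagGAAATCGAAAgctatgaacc 
Ifi213 (chr1:173599326-173599355, minus strand): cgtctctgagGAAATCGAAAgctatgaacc 
Ifi207 (chr1:173741831-173741860, minus strand): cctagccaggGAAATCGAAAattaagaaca 
Mndal (chr1:173880204-173880233, minus strand): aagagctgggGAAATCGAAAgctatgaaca 
Ifi203 (chr1:173942508-173942537, minus strand): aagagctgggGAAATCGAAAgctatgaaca 
Ifi211 (chr1:173913064-173913093, minus strand): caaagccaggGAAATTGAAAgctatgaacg 
Ifi205 (chr1:174031870-174031899, minus strand): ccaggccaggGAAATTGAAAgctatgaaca
The element read GAAATCGAAA in *Ifi208*, *Ifi213*, *Ifi207*, *Mndal* and *Ifi203*, and GAAATTGAAA in *Ifi211* and *Ifi205*. GAAATCGAAA on either strand was present in 16 of all the windows (0.0487%), and GAAATTGAAA in 38 (0.116%). The match began 58 bases before the annotated start in *Ifi208*, 73 in *Ifi213*, 41 in *Ifi207*, 37 in *Ifi211*, 36 in *Mndal*, 35 in *Ifi203* and 134 in *Ifi205*. RefSeq gives more than 1 start for several of these genes, and the distances are from the start used by the window. On their upstream side, *Ifi213*, *Ifi211*, *Mndal* and *Ifi203* end at 173599348, 173913087, 173880382 and 173942866. These ends lie beyond the match, so that in these genes the match is within the annotated gene. In *Ifi208*, *Ifi207* and *Ifi205* it is outside. Over the 30 bases shown, *Ifi208* shared 30 bases with *Ifi213*, 23 with *Mndal* and *Ifi203*, 21 with *Ifi211* and *Ifi205* and 20 with *Ifi207*.

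The ISRE pattern was not found in the windows of *Aim2* and *Ifi209*, and *Ifi204* is not in the promoter table used here. The gamma-interferon activation site TTCNNNGAA was in 0 of the 11 member windows (8.3% of all windows). The AP-1 motif TGANTCA was in 5 windows of 3 members, *Ifi209*, *Mndal* and *Ifi203* (7.81% of all windows), and the PU.1 motif GAGGAAGT in that of *Aim2* (3.2% of all windows). In *Ifi203* the same AP-1 site was counted in each of its windows, which overlap. No 2 matches of different motifs overlapped. A match is a description of letters in these windows and does not show that a factor was bound.

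**Figure D1:**
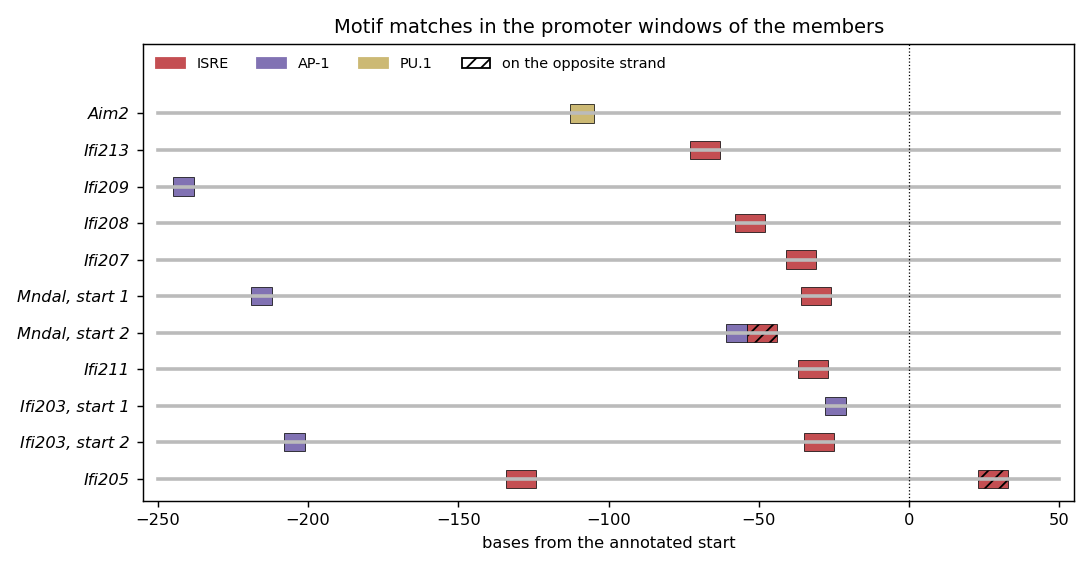
Motif matches in the 11 promoter windows of 9 members, by distance in bases from the annotated start used by each window (dotted line), with matches on the opposite strand hatched. ISRE matches (red) began between 35 and 134 bases before the start in 7 members, 1 further match in *Ifi205* lay after the start, and *Aim2* and *Ifi209* had none.

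*Ifi208* was the member with the largest difference. In the control mice it had 27, 33 and 26 reads. In the LysM-Cre mice it had 3, 2 and 0, and a count of 0 still allows up to 3 reads. In CPM these were 1.43, 1.80 and 1.43 against 0.156, 0.108 and 0. Every LysM-Cre mouse was below every control mouse, and the groups were 1.55 ± 0.217 CPM and 0.0882 ± 0.0801 CPM (SD, n = 3 each). Over the groups, 86 reads stood against 5, and the control to LysM-Cre ratio, relative to library size, was 17.4 with an exact 95% interval of 7.18 to 55 that covers counting error only. In bulk tissue, fewer cells of a type and less RNA per cell cannot be told apart.

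The fitted log2 fold change of *Ifi208* was -4.03 (standard error 0.59), the 5th lowest of 14261 genes tested. Its mean level was low, at rank 13780 of those genes counted from the highest. It was the single member called at an adjusted p under 0.05 by edgeR's quasi-likelihood test (adjusted p = 0.0413, n = 3 mice per group), where 0.898% of all genes tested were called, and this is the value known when the gene was chosen. In the fit with replicate blocks the adjusted p was 0.0766, so that 0 of the 10 members were called with the block, against 0.33% of all genes.

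Both RefSeq transcripts of *Ifi208* were lower. The curated one, NM_001162938, had 22.03, 27.35 and 23.90 estimated reads in the control mice and 3, 0 and 0 in the LysM-Cre mice. The predicted one, XM_011238729, had 4.97, 5.65 and 2.10 against 0, 2 and 0. Each had reads in all 3 control libraries and in 1 LysM-Cre library.

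Because *Ifi208* and *Ifi213* are alike beyond their promoters, the reads that could fit both were counted as sequence. Of 5255 different 50-base stretches in the GENCODE M21 transcripts of *Ifi208*, 1098 (20.9%) also occurred in a transcript of another gene, 951 of them in *Ifi213* and 319 in *Ifi206*, a further family gene. *Ifi213*, also listed by RefSeq as *Pydc4*, had 52, 49 and 65 reads in the control mice and 109, 59 and 88 in the LysM-Cre mice. Its levels were 2.75, 2.68 and 3.56 CPM against 5.68, 3.19 and 4.76 CPM (log2 fold change 0.60 ± 0.25 SE). The LysM-Cre mouse was higher than the control mouse of the same replicate number in 3 of 3 cases, although the groups overlapped. The labels do not pair the mice, so that such counts follow the numbering only.

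In a sum chosen after these values were seen, the reads of *Ifi208* and *Ifi213* together were 79, 82 and 91 in the control mice and 112, 61 and 88 in the LysM-Cre mice. The summed level was 4.55 ± 0.409 CPM and 4.63 ± 1.28 CPM (SD, n = 3 each), a log2 ratio of 0.03, with overlapping groups. *Ifi206* had 24, 27 and 23 reads against 48, 24 and 64 (log2 fold change 0.85 ± 0.37 SE, adjusted p = 0.352 in edgeR). With it the sum was 103, 109 and 114 reads against 160, 85 and 152. The summed estimated count of *Ifi208* was a whole number in all 6 libraries, within 0.05 of a read, and that of *Ifi213* in 5 of 6. The division of shared reads between the copies was not tested.

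Besides *Ifi208*, *Aim2* was the only member with a log2 fold change below 0. It had 96, 89 and 75 reads in the control mice and 66, 79 and 54 in the LysM-Cre mice. At 5.08, 4.86 and 4.11 CPM against 3.44, 4.27 and 2.92 CPM, it was lower for 3 of 3 replicate numbers. The groups overlapped, as LysM-Cre replicate 2 lay above control replicate 3 (log2 fold change -0.40 ± 0.19 SE). *Aim2* shared the fewest 50-base stretches with other genes, 0.742% of its own.

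*Ifi204* had 24.8, 27.2 and 26.4 CPM in the control mice and 31.1, 28.5 and 25.2 CPM in the LysM-Cre mice (log2 fold change 0.11 ± 0.09 SE). The groups overlapped, with LysM-Cre replicate 3 inside the control range. Within the gene, the curated transcript NM_008329 held 79.1% to 92.1% of the reads. The predicted transcript XM_006496675 had 35.89, 53.10 and 68.79 reads in the control mice and 97.05, 110.14 and 94.75 in the LysM-Cre mice, which do not overlap, and was picked out after its values were seen.

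*Ifi203*, which encodes the nuclear protein p203, was higher in each LysM-Cre mouse than in each control mouse. It had 579, 607 and 629 reads in the control mice and 845, 753 and 813 in the LysM-Cre mice. Its levels of 30.6, 33.2 and 34.5 CPM against 44.1, 40.7 and 43.9 CPM did not overlap (log2 fold change 0.39 ± 0.07 SE). *Ifi211* had 19.9, 21.3 and 16.1 CPM against 27.2, 23.3 and 22.5 CPM, also without overlap (log2 fold change 0.35 ± 0.13 SE). For *Ifi211* 72.8% of the 50-base stretches also occur in other genes, mostly *Ifi205* and *Ifi204*, so that its count depends on how shared reads were divided.

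The values of *Mndal*, which is related to the human myeloid nuclear antigen gene, were 23.1, 27.9 and 24.4 CPM in the control mice and 32.5, 21.7 and 27.2 CPM in the LysM-Cre mice (log2 fold change 0.11 ± 0.15 SE). LysM-Cre replicate 1 was the highest and LysM-Cre replicate 2 the lowest of the 6 libraries. *Ifi207* had 17.7, 19.7 and 18.1 CPM against 22.8, 21.4 and 16.7 CPM (log2 fold change 0.14 ± 0.13 SE). Again the LysM-Cre mice stood on both sides of the control mice.

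*Ifi209* had 7.46, 7.76 and 6.41 CPM against 9.39, 6.44 and 7.46 CPM (log2 fold change 0.11 ± 0.17 SE). *Ifi205*, which has been linked to the expression of ASC, had 4.39, 3.11 and 3.95 CPM against 3.81, 4.33 and 3.41 CPM (log2 fold change 0.01 ± 0.19 SE). Both had overlapping groups. By replicate number, *Ifi205* was higher in the LysM-Cre mouse for 1 of 3.

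**Figure D2:**
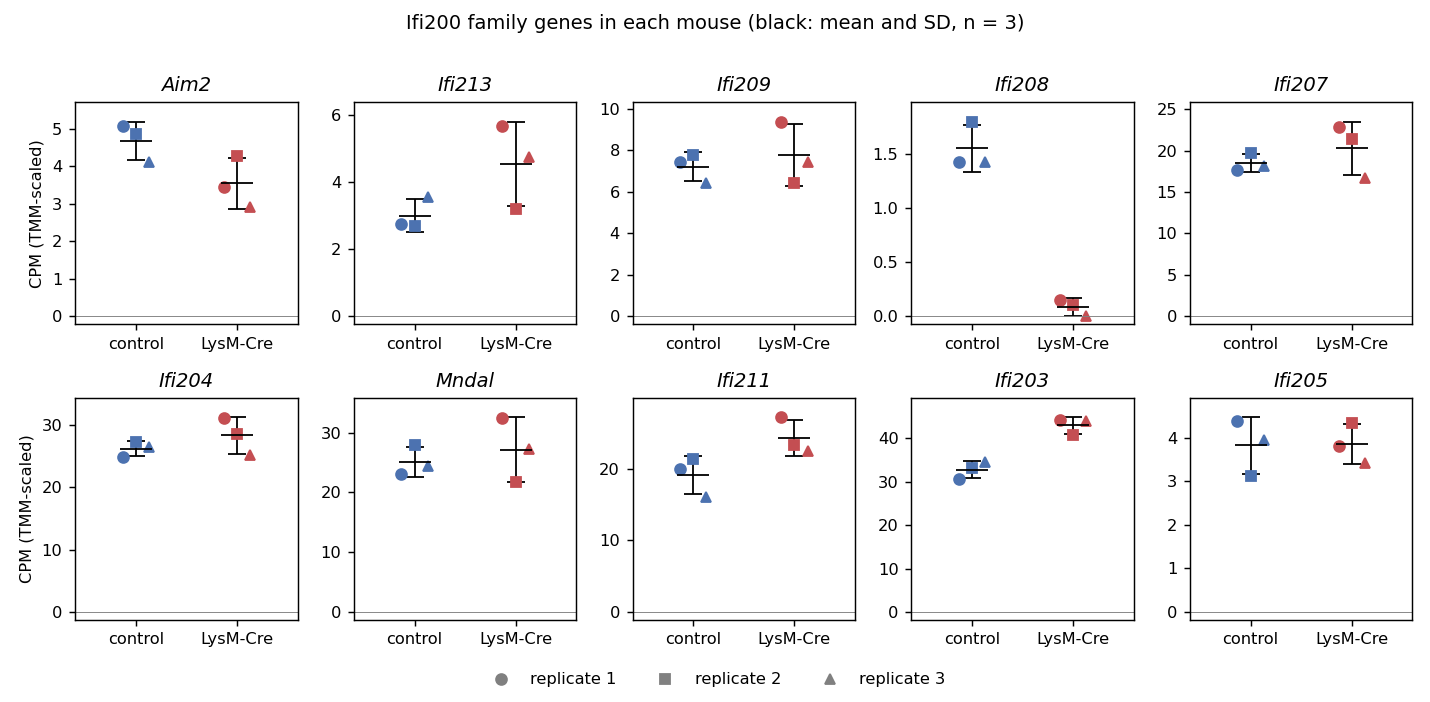
CPM (TMM-scaled, y axis from 0, own scale in each panel) of the 10 members in each mouse, with the marker giving the replicate number and black lines the mean and SD (n = 3 per group). *Ifi208* was near 0 in the 3 LysM-Cre mice, *Ifi203* and *Ifi211* were higher there without overlap, and LysM-Cre replicate 1 was the highest library for 7 members.

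Of the 10 members, 8 had a log2 fold change above 0, against 49.4% of all genes tested, and 2 below 0. The groups did not overlap for 2 members that were higher in the LysM-Cre mice (8.94% of all genes tested) and for 1 that was lower (11.4%). The median log2 fold change of the members was 0.11, against -0.002 for all genes tested. LysM-Cre replicate 1 had the highest CPM for 7 members, and without it 6 of the 10 were above 0. *Ifi209* and *Mndal* were then at -0.05 and -0.04. With DESeq2, 2 of the 10 were called, *Ifi208* lower and *Ifi203* higher, where it called 2.65% of all genes lower and 2.12% higher, 4.77% in all.

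Summed over the family, the level was 137.2, 149.4 and 139.0 CPM in the control mice and 180.2, 153.9 and 154.1 CPM in the LysM-Cre mice. The groups did not overlap, and the log2 ratio of the means was 0.20. It was 0.12 without LysM-Cre replicate 1. Left without *Ifi208*, the sum was 135.8, 147.6 and 137.6 CPM against 180.0, 153.8 and 154.1 CPM, a log2 ratio of 0.21.

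Levels were compared between genes in transcripts per 1000000 (TPM), which are scaled to transcript length. In the control mice *Mndal* (27.3 ± 1.94 TPM, SD, n = 3), *Ifi204* (26.1 ± 0.796) and *Ifi211* (25.8 ± 3.25) were the most abundant members, and their ranges overlapped. *Ifi203* (15.7 ± 0.560 TPM) and *Ifi207* (11.6 ± 0.411) followed without overlap. *Ifi205* (5.88 ± 1.09 TPM) overlapped with *Ifi209* (4.51 ± 0.393), and below them stood *Aim2* (3.32 ± 0.286), *Ifi213* (1.92 ± 0.441) and *Ifi208* (1.09 ± 0.119), each apart from the next. In the LysM-Cre mice *Ifi211* came first at 33.1 ± 3.53 TPM, in a range that overlapped with those of *Mndal* and *Ifi204*. There *Ifi213* (2.88 ± 0.839 TPM) and *Aim2* (2.59 ± 0.717 TPM) changed places, also with overlapping ranges.

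The share of the summed TPM that came from *Ifi208* was 0.887% on average in the control mice and 0.0382% in the LysM-Cre mice. That of *Ifi203* was 12.7% and 14.7%, and that of *Ifi211* 20.9% and 23.7%. The family sum in TPM was 122.7, 127.7 and 119.1 in the control mice and 153.7, 136.5 and 127.3 in the LysM-Cre mice. On this scale control replicate 2 lay just above LysM-Cre replicate 3, so that the groups overlapped (log2 ratio 0.18).

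**Figure D3:**
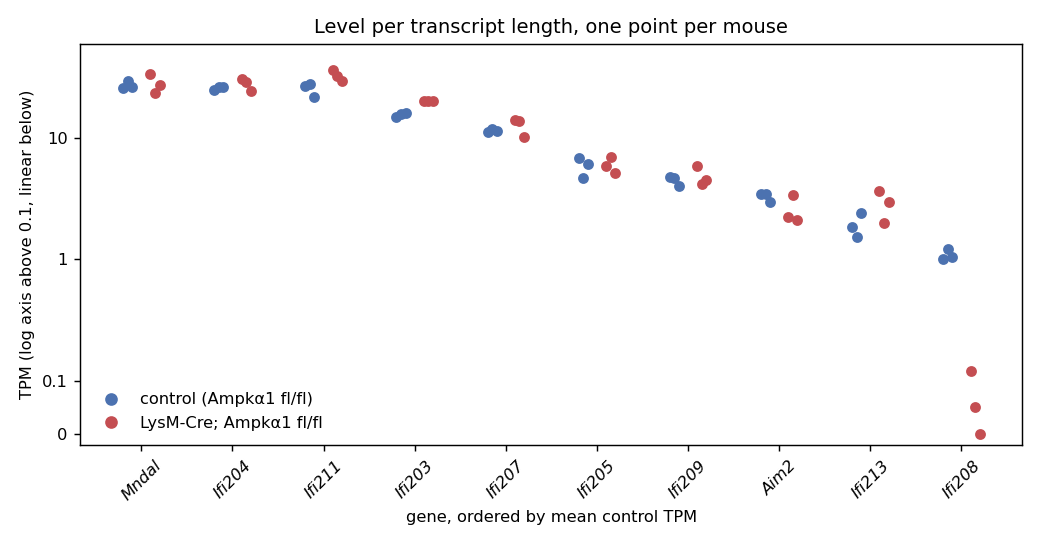
TPM of each member in each mouse, ordered by the control mean, on an axis that is logarithmic above 0.1 and linear below. The 3 most abundant members lay between 22.1 and 29.6 TPM in the control mice, and *Ifi208* went from the range of 1.01 to 1.23 TPM in the control mice to a mean of 0.0567 TPM in the LysM-Cre mice.

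The table held 74 entries for the members, which are 65 distinct RefSeq transcripts and 9 repeated placements of some of them on the genome. Of the 74 entries, 25 had reads in every library, 46 were at 0 in some and 3 in all. *Ifi205* and *Ifi209* had 1 transcript each. *Aim2* had 18, and its curated transcript NM_001013779 held between 35.9% and 53.9% of the reads. In *Ifi213*, with 9 transcripts, the share of XM_030255721 ranged from 7.9% to 47.9% between libraries with no separation of the groups.

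In the cluster *Ifi208* lay between *Ifi209* and *Ifi207*, whose log2 fold changes were 0.11 and 0.14. The 3 tested genes nearest to the cluster on the side of *Aim2* were *Fcer1a* (0.67, adjusted p = 0.492), *Ackr1* (-0.30, adjusted p = 0.695) and *Cadm3* (-0.79, adjusted p = 0.216), in edgeR's quasi-likelihood test. On the side of *Ifi205*, *Fmn2* was at -0.39 (adjusted p = 0.811) and *Rgs7* at -0.35 (adjusted p = 0.725) in the same test. Of these 5 genes 0 were called at 0.05, and 1, *Cadm3*, had an unadjusted p under 0.05. *Ifi214* had between 0 and 2 reads per library and was not tested, and *Ifi202b* was not analysed here.

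**Figure D4:**
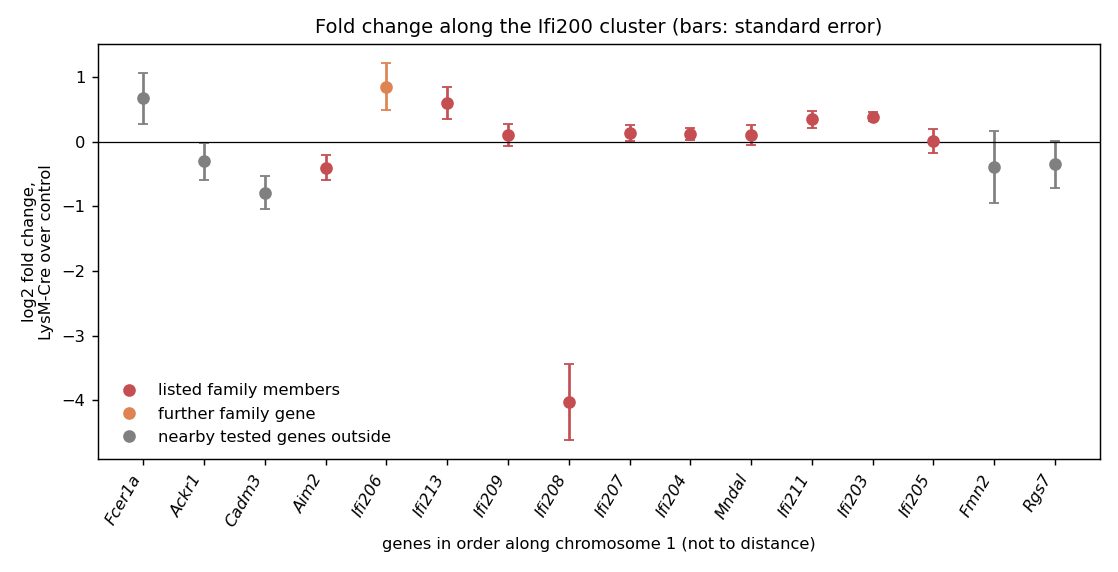
Fitted log2 fold change (LysM-Cre over control, bars are the standard error) of the members, of *Ifi206* and of 5 nearby tested genes outside, in their order along the chromosome and not to distance. *Ifi208* stood at -4.03 between neighbours at 0.11 and 0.14.

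The genes of the interferon response around the family were taken from lists written with earlier results of these data known. Of 34 interferon-stimulated antiviral genes tested, 28 were above 0 and 6 below, and the median log2 fold change was 0.46. None passed an adjusted p of 0.05 in edgeR's quasi-likelihood test in either direction (called 0 of 34, where 0.33% of all genes were called higher and 0.568% lower). At an unadjusted p under 0.05 there were 16 higher and 1 lower, where 5.97% and 8.55% of all genes were. DESeq2 called 10 higher and 1 lower, where it called 2.12% of all genes higher and 2.65% lower. The summed level was 779.8, 831.1 and 802.5 CPM in the control mice and 1103, 786.3 and 1096 CPM in the LysM-Cre mice.

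By this sum LysM-Cre replicate 2 was within the range of the control mice. *Ifi208* had 2 reads in that mouse and 3 and 0 in the others, which is too few to compare these mice. Whether its level goes with that of the antiviral genes was not tested. *Ifit3*, which encodes an antiviral protein induced by interferon, had 15, 15.7 and 10.7 CPM in the control mice and 56.2, 17.8 and 56.4 CPM in the LysM-Cre mice (log2 fold change 1.66 ± 0.43 SE, adjusted p = 0.143 in edgeR). *Ifi44* had 3.17, 3.50 and 4.06 CPM against 10.1, 5.95 and 13.8 CPM (1.47 ± 0.30 SE, adjusted p = 0.0914). *Ifit1* had 7.94, 8.74 and 7.90 CPM against 27.6, 8.44 and 28.2 CPM (1.39 ± 0.42 SE, adjusted p = 0.196). For *Ifit3* and *Ifi44*, as for *Ifi203* (40.7 CPM), LysM-Cre replicate 2 still lay above the control mice, and for *Ifit1* it did not. The groups did not overlap for 12 antiviral genes that were higher and 1 that was lower (8.94% and 11.4% of all genes tested).

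Of 19 interferon receptors, JAK-STAT and IRF factors, 13 were above 0 and the median was 0.05. By edgeR 0 were called, with 4 higher and 0 lower at an unadjusted p under 0.05, and DESeq2 called 2 higher. For this and the following lists, the unadjusted shares over all genes were 5.97% higher and 8.55% lower. Those of DESeq2 were 2.12% and 2.65%. *Irf7*, a factor that amplifies interferon production, had 16.1, 21.8 and 30.2 CPM against 41.9, 23.5 and 41.2 CPM (0.65 ± 0.29 SE, adjusted p = 0.371). Its groups overlapped, with LysM-Cre replicate 2 inside the control range.

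In the list of cytosolic DNA sensing and STING genes, 9 of 26 were above 0 and 17 below, with a median of -0.05. By edgeR 0 were called, with 4 higher and 2 lower at an unadjusted p under 0.05, and DESeq2 called 0. *Zbp1*, a sensor of Z-form nucleic acids, had 5.93, 5.35 and 5.04 CPM in the control mice and 9.18, 6.76 and 8.54 CPM in the LysM-Cre mice (log2 fold change 0.58 ± 0.15 SE, adjusted p = 0.153 in edgeR). *Cgas*, which makes the STING ligand cGAMP, had 8.10, 8.36 and 6.47 CPM against 4.17, 6.49 and 4.76 CPM (-0.57 ± 0.20 SE, adjusted p = 0.257). *Enpp1*, which degrades that ligand, had 298, 293 and 254 CPM against 323, 339 and 329 CPM (0.23 ± 0.07 SE, adjusted p = 0.221).

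The 8 genes of cytosolic RNA sensing had a median of 0.20, with 6 above 0. By edgeR 0 were called, 2 were higher and 0 lower at an unadjusted p under 0.05, and DESeq2 called 1 higher. *Ddx58*, the RNA sensor RIG-I, was the one with the largest difference (0.53, standard error 0.12, edgeR adjusted p = 0.119), followed by *Ifih1* (0.43, adjusted p = 0.313) and *Dhx58* (0.40, adjusted p = 0.436). Of 20 inflammasome and pyroptosis genes 9 were above 0, with a median of -0.04. Again edgeR called 0, with 2 higher and 0 lower at an unadjusted p under 0.05, and DESeq2 called 0. In that list *Il18bp*, which binds interleukin-18, was at 0.62 (standard error 0.16, edgeR adjusted p = 0.14), *Mefv*, which encodes pyrin, at 0.55 (adjusted p = 0.546) and *Il1rn*, the interleukin-1 receptor antagonist, at 0.50 (adjusted p = 0.464). *Irf3*, *Zbp1* and *Samhd1* stand in more than 1 list.

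**Figure D5:**
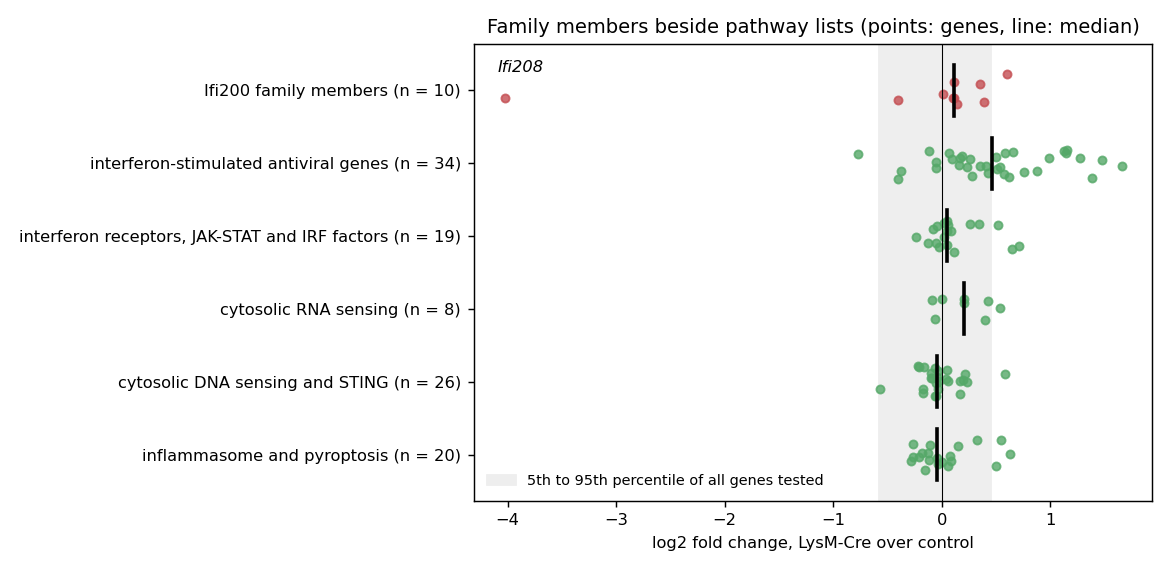
Fitted log2 fold change (LysM-Cre over control, x axis) of each member and of the genes of 5 pathway lists, with the median as a black line and the 5th to 95th percentile of all genes tested, -0.58 to 0.45, shaded. *Ifi208* lies at -4.03, and 28 of 34 antiviral genes lie above 0.

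Markers of some of the cells in the tissue also differed between the genotypes. The summed level of 12 macrophage markers was between 1110 and 1160 CPM in the control mice and between 728 and 922 CPM in the LysM-Cre mice. Of these markers 3 had a log2 fold change above 0, 9 were below 0 and 1 was called lower. That gene, the scavenger receptor *Marco*, had 37, 50 and 55 reads against 5, 9 and 5 (log2 fold change -2.90, edgeR adjusted p = 0.0217, or 0.0528 with replicate blocks). The sum of 6 monocyte markers was between 194 and 239 CPM against 79.8 to 133 CPM, with 3 above 0, 3 below 0 and 1 called lower, *F13a1*. That gene made up most of the sum, and the other 5 markers overlapped (43.8, 42.6 and 35.4 CPM in the control mice and 37.0, 41.9 and 25.9 CPM in the LysM-Cre mice). For 6 dendritic cell markers the ranges overlapped (17.8 to 20.3 and 15.4 to 23.3 CPM). The sums were also lower without overlap for mast cells (344 to 490 and 137 to 226 CPM over 5 genes), red blood cells and their precursors (2000 to 2970 and 676 to 983 CPM over 8 genes), B cells (3.18 to 4.21 and 1.62 to 2.50 CPM over 6 genes) and endothelium (663 to 714 and 589 to 662 CPM over 6 genes). The endothelial ranges nearly touched, with a median log2 fold change of -0.12 and 0 genes called. Of the B cell markers 1, *Cd79b*, passed the filter on low counts, and it was not called. Among single genes, 11.4% of all tested were lower without overlap. For T and NK cells (8.91 to 12.0 and 7.41 to 9.91 CPM) and neutrophils (11.1 to 50.8 and 12.6 to 54.7 CPM) the sums overlapped. Those of tendon and fibroblast and of skeletal muscle markers overlapped too. The muscle sum was between 180 and 3170 CPM in the control mice and between 1040 and 9190 CPM in the LysM-Cre mice. All 8 muscle genes were above 0, with a median log2 fold change of 1.83 and 0 called. In edgeR 6 red blood cell genes were called lower (1 with replicate blocks), 1 mast cell gene (3 with replicate blocks) and 1 tendon and fibroblast gene (0 with replicate blocks). No marker was at 0 in all 6 libraries. The part of these cells in the level of *Ifi208* or of any other member was not tested.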

How the data were processed

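Estimated counts of reads, not normalized, and TPM values were deposited by the authors for 65053 RefSeq transcripts in 6 libraries. The processing notes name genome build GRCm38.p6, and the aligner and counting tool are not given in the sources used here. The authors also deposited 6 columns of FPKM, 6 of a normalized count, a signal scaled per library, and 8 of averages, which were not used. The estimated counts were summed per gene and rounded, and 99.72% of genes were matched to a symbol.

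Genes were compared with edgeR 4.0.16 in R 4.3.3 (TMM, filterByExpr, quasi-likelihood test, Benjamini-Hochberg adjustment over 14261 genes, threshold 0.05), without a block, as the study's statistics were unpaired. Standard errors (SE) were derived from each estimate and its F statistic. Each library name was taken from the labels, and libraries of a group differed by more than counting noise. The deviations of same-numbered libraries from their group means had r = 0.184, 0.118 and 0.31 across genes. Differently numbered libraries were not compared, so these values cannot show that the numbering pairs the mice. Blocked values are given where a call changes. DESeq2 1.42.0, RLE and upper-quartile scaling, no filter, TPM, and leaving out each mouse were the alternatives, and one without repeated placements of a transcript was added after seeing the data. The fits were tested on simulated data. Promoters came from RefSeq (GRCm38.p6) and transcripts for the 50-base search from GENCODE M21 (GRCm38). Protein sequences were not used here.

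The members, the lists and the tests were chosen with earlier results of these data known. Beside the members, the genes named are other family genes, 3 tested genes on each side of the cluster, the 3 largest changes in each list with any called, the 5 genes most like *Ifi208* by Pearson r, *Prkaa1* and *Lyz2*. *Marco* and *F13a1* were named because they were the called genes of their lists. Some genes that this rule takes in are not reported here.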

Additional observations from a re-analysis of the deposited data

How the results depend on the processing

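The log2 fold change of *Ifi208* lay between -4.68 (without LysM-Cre replicate 1) and -3.48 (without LysM-Cre replicate 3) when 1 mouse was left out, and at -4.03 with all mice. Its edgeR adjusted p was between 0.0376 and 0.185 over these fits. It stayed under 0.05 without LysM-Cre replicate 3 and was 0.18, 0.185 and 0.0945 without control replicates 1, 2 and 3, and 0.136 and 0.0617 without LysM-Cre replicates 1 and 2. With RLE scaling, upper-quartile scaling, no filter and DESeq2 it was 0.041, 0.0433, 0.0398 and 0.000156, and with the replicate block 0.0766. The number of genes called was 128, and it was 680 with DESeq2, 47 with the replicate block and between 8 (without control replicate 2) and 276 (without LysM-Cre replicate 2) with 1 mouse left out. Of the lists with 0 called, DESeq2 called 11 antiviral genes, 2 of the receptors and factors and 1 of RNA sensing. With 1 mouse left out the counts were 0 to 14, 0 to 1 and 0 to 3, and each maximum was found without LysM-Cre replicate 2. The cause was not tested. The calls of *Ifi208*, *Marco*, *Clec10a* and *Srebf1* were lost with the replicate block, which changed no other call of a gene named here. The family sum had a log2 ratio between 0.12 and 0.24, and the number of members above 0 was between 6 and 8. The log2 fold change of *Ifi205* was -0.12 without control replicate 2 and -0.08 without LysM-Cre replicate 2. At 0 to 3 reads per LysM-Cre library, depth limits what can be said of the size of the *Ifi208* difference.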

Other observations

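Over log2 CPM in the 6 libraries, the tested genes with a pattern most like that of *Ifi208* were *Srebf1* (Pearson r = 0.9975), *Gstt1* (0.9962), *Cbr2* (0.9952), *Chp2* (0.9951) and *Clec10a* (0.9935). They lie on chromosomes 7, 10 and 11, not on chromosome 1. *Clec10a*, a lectin of macrophages and dendritic cells, had 462, 457 and 497 reads in the control mice and 229, 195 and 152 in the LysM-Cre mice (log2 fold change -1.32 ± 0.14 SE, adjusted p = 0.0174 in edgeR, or 0.0525 with replicate blocks). *Cbr2*, a carbonyl reductase, had 476, 454 and 455 reads against 216, 211 and 158 (-1.26 ± 0.12 SE, adjusted p = 0.0134). *Srebf1*, a factor of lipid synthesis, had 1325, 1292 and 1288 reads against 1063, 1018 and 919 (-0.40 ± 0.06 SE, adjusted p = 0.0412, or 0.0816 with replicate blocks). *Gstt1* and *Chp2* were at -0.73 and -1.06, both with an adjusted p of 0.0508 in edgeR. In each of the 5 genes every LysM-Cre library had fewer reads than every control library, the split that *Ifi208* shows. Because these genes were picked by their likeness to *Ifi208* over the same libraries, the split and the low p-values follow from that choice. They are no support for a link with *Ifi208*. Of all genes tested, 11.4% were lower in CPM without overlap of the groups. The r values describe these libraries and carry no test.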
